A study of Mus musculus with 6 samples.

Results

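The genes of the mitochondrial ribosomal proteins, whose symbols begin with Mrpl for the large subunit and Mrps for the small subunit, were followed in RAW264.7 cells transfected with a microRNA mimic. A gene was included if its symbol started with Mrpl or Mrps and a digit and if it had a probe set assigned to no other gene. Of the 19938 genes measured, 77 met this rule, 48 of the large and 29 of the small subunit. These cells are a macrophage-like mouse line, established from a tumour induced by Abelson murine leukaemia virus. In 3 samples the cells received negative control mimics, a scrambled RNA (control), and in the other 3 samples they received miR-342-3p mimics, synthetic RNAs that stand in for the mature microRNA. All samples were transfected in the same way and shared the same line, and no untransfected cells were analysed here. Total RNA was taken 18 h after transfection, and each sample was run on its own Affymetrix mouse array with probes along whole transcripts. The labels number the replicates without saying whether they came from separate cultures, and a legend of the study calls such transfections independent experiments. The p-values measure the spread between these samples.

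Mitochondria carry their own ribosomes, which translate only the few proteins encoded by mitochondrial DNA, all of them parts of the respiratory chain and ATP synthase. The ribosomal RNAs of these particles are made inside the organelle, whereas all of their proteins are encoded in the nucleus, translated in the cytosol and imported. Many of the proteins have a bacterial counterpart, and others were added in the eukaryotic lineage. In macrophages, mitochondrial respiration is known to differ between states of activation, with alternatively activated cells relying more on oxidative metabolism.

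The mature microRNA that the mimic stands for is printed because its bases 2 to 8, in capitals, form the seed through which a microRNA recognizes most of its target RNAs. It lies at chr12:108658680-108658702 on the plus strand of the mouse build GRCm38.p6 in the RefSeq annotation and has 23 bases.
mmu-miR-342-3p: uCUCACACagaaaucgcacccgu
A transcript that pairs with the whole seed holds GTGTGAG in the DNA alphabet. Transcript sequences of the 77 genes were not used here, and whether any of them holds this heptamer was not tested.

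Across genes, correlations between the 3 control arrays were 0.998 to 0.999, whereas those between the 3 miR-342-3p arrays were 0.991 to 0.993. Replicate 3 of miR-342-3p correlated at 0.996 with each control array and at 0.992 to 0.993 with the other miR-342-3p arrays. Of the 9 macrophage markers measured, Cd68, Lyz2, Spi1 and Csf1r had the highest control means, 12.7, 12.4, 11.5 and 11.4 on the log2 scale. Itgam, Cd14 and Ptprc had 11.1, 11.1 and 10.8, whereas Fcgr1 and Adgre1 had only 8.38 and 7.49. In bulk RNA, fewer cells holding a transcript and less of it per cell cannot be told apart. The precision was limited by the number of arrays.

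Of the 77 mitochondrial ribosomal protein genes, 9 were lower after miR-342-3p at a false discovery rate (FDR) under 0.1, and none was upregulated. The 9 were Mrpl47, Mrpl18, Mrpl1, Mrpl4, Mrpl39 and Mrpl21 of the large subunit and Mrps25, Mrps22 and Mrps5 of the small subunit. They made up 11.7% of the family, against 7.42% of all genes called lower and 4.14% called higher. All 77 genes were expressed above the median level of the arrays, and among the 9969 genes above that level 13.6% were called lower and 6.19% higher. The share of downregulated members was thus near that of the genes above the median level. At an unadjusted p under 0.05, limma placed 15 of the 77 members lower and 6 higher, where 13% and 12.5% of all genes met that mark. Among the 9969 genes above the median level, 2326 were lower and 1355 higher by the same mark.

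The count of calls depended on single arrays. Without control replicate 1, 2 or 3 it was 1 lower member each time, and all genes called lower then made up 0.512%, 0.577% and 0.702%. Without miR-342-3p replicate 2 it was 20 of the 77 members, 8 of them among the 9, against 9.18% of all genes. Without miR-342-3p replicate 3 it was 10 lower and 8 higher, against 12.1% and 10.6% of all genes. For these fits the shares among genes above the median level, where all members lie, were not computed.

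The log2 fold changes of the family ranged from −0.64 for Mrps36 to 0.52 for Mrps26, with a median of −0.07 against 0.07 over all genes and −0.02 over the genes above the median level. They lay below 0 for 47 members and above 0 for 30. The middle 50% of the family spanned −0.21 to 0.06. The median depended on the scaling, and with the arrays quantile normalized once more it was −0.0089, against 0.089 over all genes. In 21 members the 3 miR-342-3p arrays lay below the 3 control arrays without overlap, which was 27.3% of the family against 15.5% of all genes and 28.2% of those above the median level. In 8 members they lay above without overlap, which was 10.4% of the family against 21.4% of all genes and 21.1% of those above the median level.

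**Figure D1:**
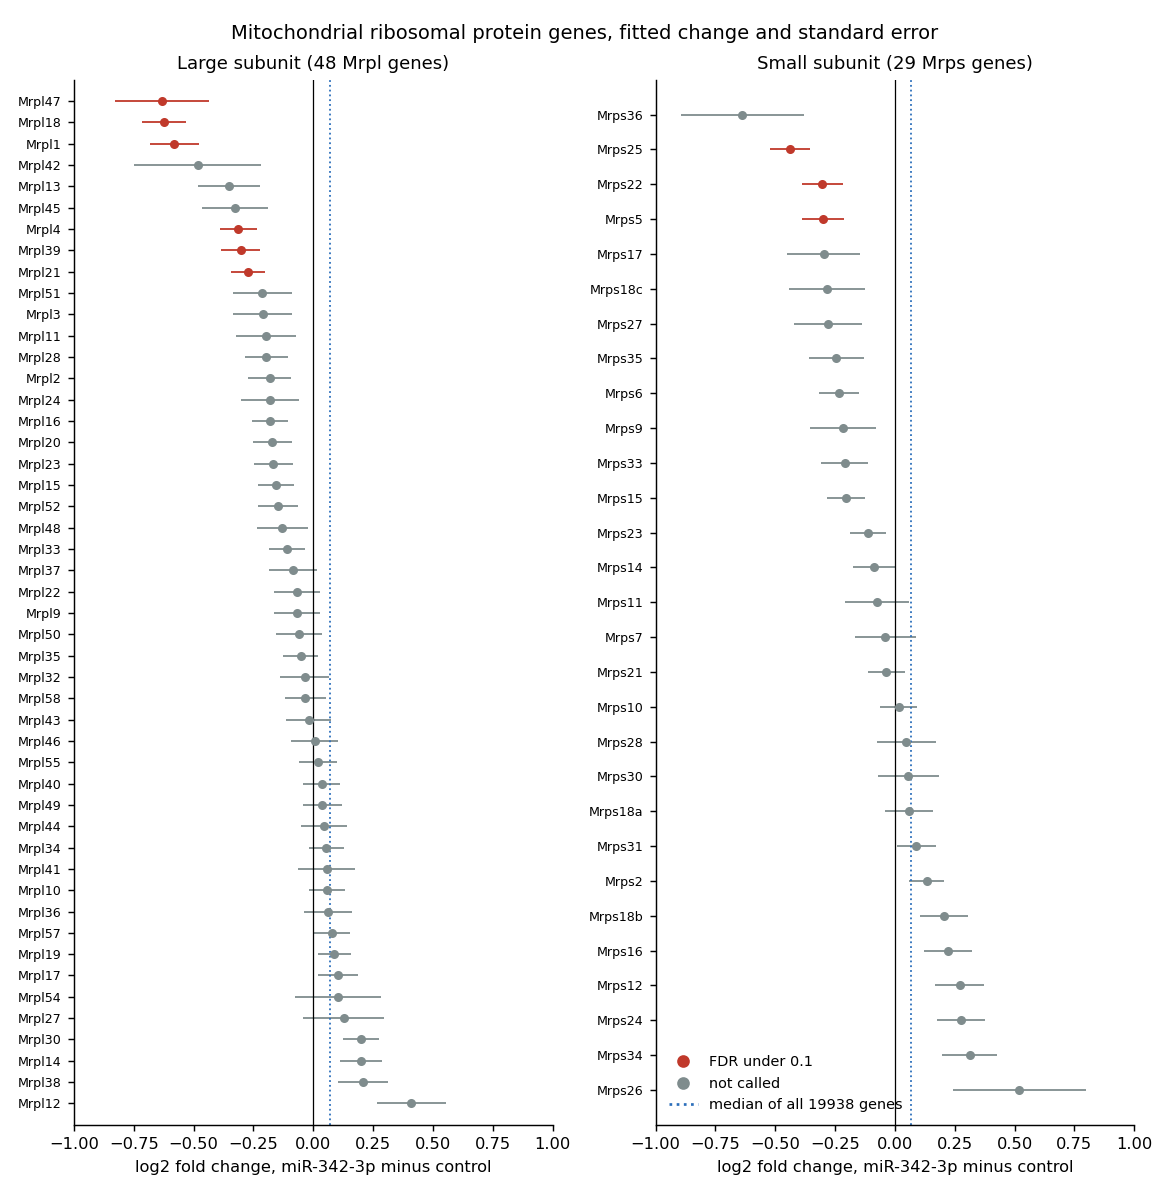
Log2 fold change of each member, miR-342-3p minus control (points, horizontal axis), with its standard error (bars), for the 48 genes of the large subunit (left) and the 29 of the small subunit (right). Red points passed an FDR of 0.1, all of them on the negative side, and the dotted line at 0.07 is the median of all 19938 genes. Mrps36, with the lowest value, and Mrps26, with the highest, have wide errors and were not called.

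The member with the lowest FDR was Mrpl18 of the large subunit, a protein of the central protuberance at the subunit interface. Its log2 values were 10.97, 10.99 and 10.93 on the control arrays and 10.18, 10.35 and 10.49 on the miR-342-3p arrays. All 3 miR-342-3p values were below the lowest control value by more than the whole control range. Its log2 fold change was −0.62 (SE 0.092, FDR 0.015), which leaves 64.9% of the control level. It was called in 15 of 16 alternative settings and missed only the methods' t-test, which is not moderated over genes, at an FDR of 0.12.

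Mrpl1 is the homologue of the bacterial protein of the L1 stalk, the mobile arm beside the exit site for spent tRNAs. It measured 8.60, 8.67 and 8.62 in the control samples and 7.90, 7.99 and 8.26 after miR-342-3p. The groups were separated, with replicate 3 nearest to the controls. The log2 fold change was −0.58 (SE 0.10, FDR 0.022), or 66.9% of the control level.

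Mrpl47 belongs to the family of bacterial protein L29, which sits next to the mouth of the exit tunnel. Its values were 9.42, 9.17 and 8.98 in the control samples and 8.09, 8.69 and 8.90 after miR-342-3p. The highest miR-342-3p value almost met the lowest control value, and the groups were the most scattered of the 9. The log2 fold change was −0.63 (SE 0.20, FDR 0.097). A second probe set of the gene had a control mean of 6.64 against 9.19 and differed by 0.15 in the other direction. The mean of both gave −0.24, which was not called.

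Mrpl4, a homologue of a bacterial protein that lines the exit tunnel, measured 10.45, 10.40 and 10.37 in the controls and 10.02, 10.18 and 10.09 after miR-342-3p. The groups did not overlap, and the log2 fold change was −0.31 (SE 0.077, FDR 0.054). Mrpl39, a protein without a bacterial counterpart, gave 11.00, 10.95 and 10.92 against 10.64, 10.56 and 10.77. All miR-342-3p values were lower, by −0.30 in the mean (SE 0.081, FDR 0.067). Mrpl21, the homologue of bacterial L21, gave 8.39, 8.42 and 8.42 against 8.11, 8.20 and 8.10. Its change was the smallest of the called genes, −0.27 (SE 0.072, FDR 0.064), with little scatter in either group.

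In the small subunit, Mrps25, which has no bacterial homologue, measured 9.64, 9.54 and 9.57 in the controls and 9.04, 9.14 and 9.25 after miR-342-3p. Each miR-342-3p value was below every control value. The log2 fold change was −0.44 (SE 0.083, FDR 0.026), or 73.8% of the control level. Mrps22, another protein specific to the mitochondrial ribosome, gave 9.89, 9.83 and 9.87 against 9.42, 9.67 and 9.59. The groups were separate at −0.30 (SE 0.085, FDR 0.075). Mrps5, whose bacterial homologue lies near the entry of the mRNA, gave 9.38, 9.32 and 9.34 against 8.89, 9.12 and 9.13, at −0.30 (SE 0.087, FDR 0.081). Its second probe set differed by −0.24, and with the mean of both probe sets Mrps5 was not called.

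Except for Mrpl18, each of the 9 missed the threshold when any 1 control array was left out, and the FDR of the 9 reached 0.12 to 0.31 over the alternatives. In every one of the alternatives the fold changes of the 9 remained below 0.

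**Figure D2:**
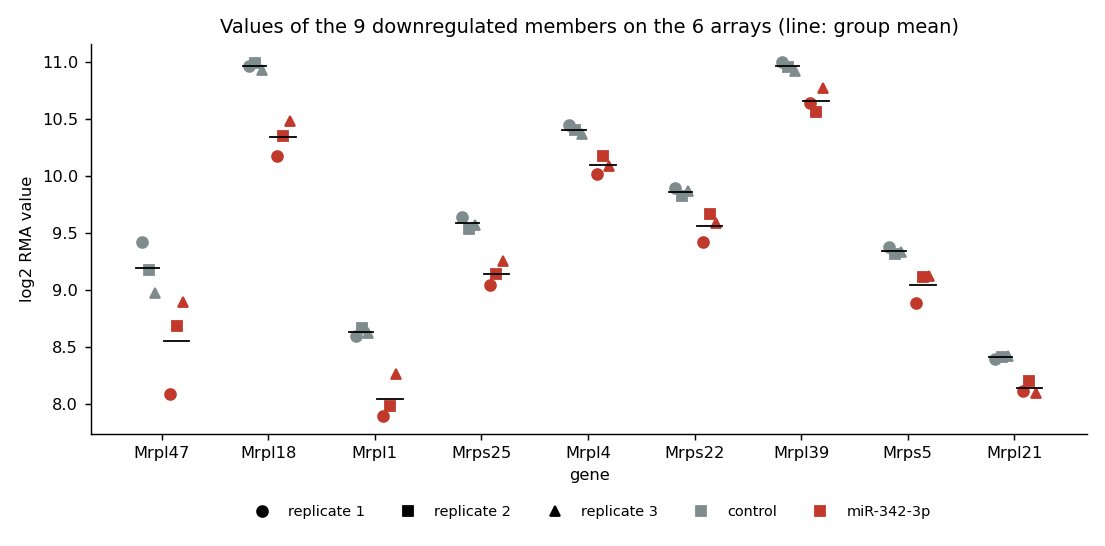
Log2 RMA values (vertical axis) of the 9 downregulated members on the 6 arrays, control in grey and miR-342-3p in red, with the replicate given by the marker and the group mean by a line. The red points lie below the grey points in all 9 genes, and the gap is narrowest in Mrpl47, where 8.90 faces 8.98.

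In some members that were not called, 1 array lay far from the rest. Mrps36, a protein first named for the small subunit and now known as a component of the 2-oxoglutarate dehydrogenase complex, measured 9.10, 9.08 and 9.19 in the controls and 7.76, 8.95 and 8.75 after miR-342-3p. All 3 values were below the controls, replicate 2 by the least and replicate 1 by the most, with a log2 fold change of −0.64 (SE 0.26, FDR 0.17). Mrps36 was called lower with the replicate number as a block (FDR 0.048), without replicate 2 (FDR 0.089) and with array weights (FDR 0.095). Its second probe set differed by −0.51. Mrpl42, which has no bacterial homologue, gave 8.76, 8.75 and 8.87 against 7.55, 8.64 and 8.73. Replicate 1 again was far below the rest, and the difference was −0.48 (FDR 0.27).

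No member passed the threshold upward, and in most of the genes that lay above the controls replicate 2 was the highest array. Mrps26, specific to the mitochondrial small subunit, measured 8.62, 8.69 and 8.81 in the controls and 8.98, 10.01 and 8.70 after miR-342-3p. Its difference of 0.52 (SE 0.28, FDR 0.26) came with overlapping groups, since replicate 3 lay within the control range. Mrpl12, a protein of the stalk that is also known to bind the mitochondrial RNA polymerase, gave 10.55, 9.96 and 10.11 against 10.59, 10.76 and 10.50. One control value lay within the range of the miR-342-3p values, and the difference was 0.41 (SE 0.15, FDR 0.13), the FDR next above the threshold, whereas Mrpl47 at 0.097 was the last below it.

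Mrps34, Mrps24 and Mrps12 lay above the controls on all 3 arrays without being called. Mrps34, a mitochondrion-specific protein, gave 8.71, 8.70 and 8.70 against 8.91, 9.29 and 8.85 (log2 fold change 0.31, FDR 0.14). Mrps24, the homologue of bacterial S3, gave 9.66, 9.74 and 9.68 against 9.89, 10.18 and 9.84 (0.28, FDR 0.14). Mrps12, whose bacterial homologue borders the decoding centre, gave 7.82, 7.86 and 7.93 against 8.09, 8.34 and 7.98 (0.27, FDR 0.14). The groups were apart in each, and replicate 2 was the highest of the 6 arrays in all of them. Mrpl38, Mrpl14 and Mrpl30 of the large subunit also lay above without overlap, at 0.21, 0.20 and 0.20 with FDRs of 0.24, 0.19 and 0.14, and so did Mrps2 and Mrpl19 at 0.13 and 0.09. When the arrays were quantile normalized once more, 6 members were called higher, namely Mrpl12, Mrpl14, Mrpl30, Mrps12, Mrps24 and Mrps34, where 9.11% of all genes were. These directions upward held in every alternative setting for the genes named here with an FDR. For many of the settings this was fixed beforehand, since they keep the fold change or drop a single array from groups that were apart.

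The 3 miR-342-3p arrays did not treat the family alike. Relative to the control means, the median change of the members was −0.19 on replicate 1, 0.05 on replicate 2 and −0.10 on replicate 3. The same medians over all genes were 0.11, 0.04 and 0.03, and over the genes above the median level they were −0.10, 0.04 and −0.02. Replicate 1 was below all 3 controls in 56 members, or 72.7%, replicate 2 in 22, or 28.6%, and replicate 3 in 50, or 64.9%. Among the genes above the median level the shares were 56.2%, 38.5% and 44.1%. Replicate 1 gave the lowest miR-342-3p value in 50 members and replicate 3 in 24, while replicate 2 gave it in 3 and was the highest in 59. Among 58 cytosolic ribosomal protein genes replicate 1 was the lowest in 41 and replicate 2 the highest in 44. Among the 9969 genes above the median level these counts were 5006 and 5223. The order of the replicates was thus not particular to the family.

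The spread between the miR-342-3p samples was larger than that between the controls in 72 of the 77 genes, or 93.5%, with a median SD of 0.16 against 0.045. It was larger in 84.9% of all genes and in 89.9% of those above the median level. All 3 changes were below 0 in 28 members, or 36.4%, and above 0 in 13, or 16.9%. Among the genes above the median level these shares were 34.6% and 29.4%. The remaining members had changes of both signs.

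**Figure D3:**
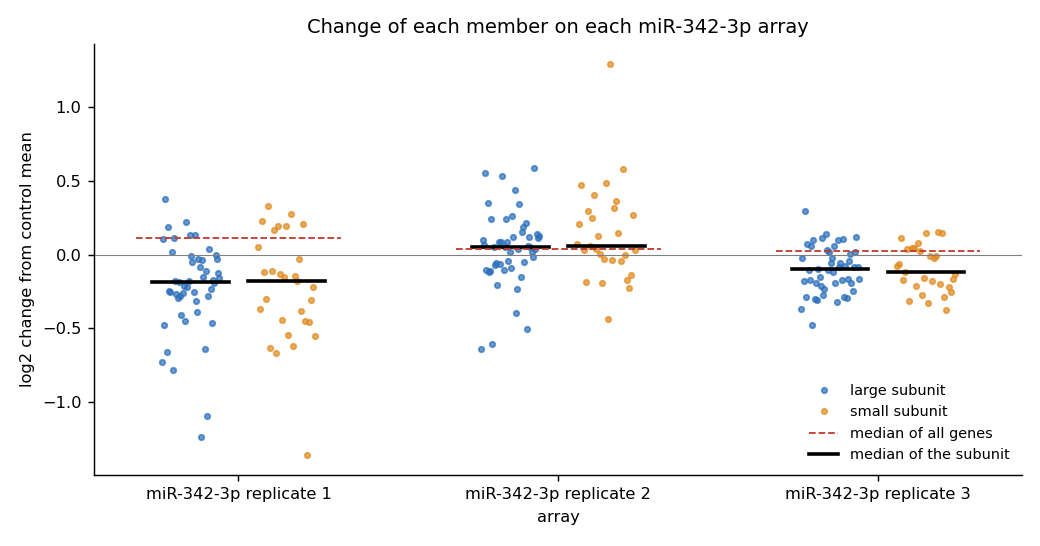
Change of each member on each miR-342-3p array from its control mean (vertical axis, log2), large subunit in blue and small subunit in orange, with the subunit medians as black lines and the median of all genes as a dashed line. Both subunits lie mostly below 0 on replicates 1 and 3 and around 0.05 on replicate 2, and the extreme points are Mrps36 and Mrpl42 on replicate 1 and Mrps26 on replicate 2.

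The large and the small subunit are set side by side here, and the difference between their genes was not tested. In the large subunit 6 of 48 genes were called lower, or 12.5%, and in the small subunit 3 of 29, or 10.3%, against 7.42% of all genes and 13.6% of those above the median level, with medians of the log2 fold change of −0.07 and −0.08. The medians on replicates 1, 2 and 3 were −0.19, 0.05 and −0.10 for the large subunit and −0.18, 0.06 and −0.12 for the small. Groups separated downward were found in 15 large subunit genes, or 31.2%, and in 6 small subunit genes, or 20.7%, against 15.5% of all genes and 28.2% of those above the median level. Groups separated upward were found in 4 genes of each subunit, 8.33% of the large and 13.8% of the small, against 21.4% and 21.1%. The difference between the subunit medians was small and changed sign when control replicate 3 or miR-342-3p replicate 1 or 3 was left out.

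The mean level of the large minus that of the small subunit genes, which can be read between arrays only, was 0.27, 0.25 and 0.23 on the control arrays and 0.25, 0.15 and 0.24 on the miR-342-3p arrays. The groups overlapped, with means of 0.25 ± 0.018 and 0.21 ± 0.055 (SD, n = 3) on the log2 scale. Only replicate 2 lay outside the control range. Mrps30 and Mrps18a are known to sit in the large subunit despite their names. With both moved there and Mrps36 left out, the medians were −0.06 for 50 large and −0.08 for 26 small subunit genes, and the calls were the same 6 and 3 in number.

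Proteins kept from the bacterial ribosome and those added to it also had like medians, −0.07 over the 48 genes with a bacterial homologue and −0.06 over the 29 without. The medians of the classes within each subunit were more apart, at −0.13 for conserved and −0.03 for added genes of the large subunit. In the small subunit the order was the other way, at −0.04 and −0.21. Called lower in the large subunit were 5 of 30 conserved genes, or 16.7%, and 1 of 18 added genes, or 5.56%. In the small subunit it was 1 of 18 conserved genes, or 5.56%, and 2 of 11 added genes, or 18.2%. Subunits were taken by symbol here. The added genes of the small subunit thus include Mrps36 and Mrps30, and the conserved ones Mrps18a, which do not sit in that subunit. None of them was called. Of all genes 7.42% were called lower, and of those above the median level 13.6%. The difference between these classes was not tested.

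Of the 77 members, 8 had 2 probe sets assigned to them alone. Both probe sets differed in the same direction in 6 of them. For Mrpl23 the differences were −0.17 and −0.14, for Mrps33 −0.21 and −0.15, for Mrpl51 −0.21 and −0.05, and for Mrpl27 0.13 and 0.14. The probe sets of Mrpl47 went opposite ways, as did those of Mrpl41 at 0.06 and −0.01. RefSeq lists 6 pseudogenes of the family, among them copies of Mrpl23, Mrpl27, Mrpl48 and Mrps36, and a probe set may not distinguish a gene from a near copy. One more member by name, Mrpl53, shares its only probe set with Ccdc142, which differed by 0.11, and was not counted.

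Promoters of the family were compared with other promoters because nuclear respiratory factors and ETS factors are known to act on many genes of the mitochondrial translation machinery. RefSeq promoters, from 250 bases before to 50 after the start, were found for 68 members as 74 windows. The heptamer CCGGAAG, a form of the ETS site, occurred on either strand in 25 of the 68 genes, or 36.8%, against 13.6% of the genes on the arrays and 9.93% of all genes with a promoter. GCGCATG or GCGCAGG, forms of the NRF1 site whose matches on opposite strands can overlap, occurred in 22 genes, or 32.4%, against 17.7% and 13%. AAGATGG, a form of the YY1 site, occurred in 13 genes, or 19.1%, against 7.28% in both. The E box CACGTG occurred in 5 genes, or 7.35%, against 9.5% and 8.09%. A gene with several windows was counted once. Of the cytosolic ribosomal protein genes 36.2%, 17%, 10.6% and 10.6% held the same letters, in that order.

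Of the 9 downregulated members, 8 had a promoter window. The ETS letters were found in 3, Mrpl18, Mrpl21 and Mrps22, and the NRF1 letters in 2, Mrpl21 and Mrpl39. YY1 letters and E boxes were in none of the 8. The median log2 fold change was −0.07 for members with and −0.08 for those without the ETS letters, −0.04 and −0.14 for NRF1, −0.04 and −0.11 for YY1, and −0.17 and −0.07 for the E box. The following windows of 30 bases, read 5′ to 3′ along the strand of the gene in GRCm38.p6 with the match or its reverse complement in capitals, are shown because they place such matches in downregulated members and in 2 members whose values went the other way.
Mrpl18, ETS, chr17:12916312-12916341, minus strand: actgaaaacgCCGGAAGtagggggctgcgg
Mrpl21, NRF1, chr19:3282888-3282917, plus strand: ccgcaaaaggcCCTGCGCtcccagccaggg
Mrpl39, NRF1, chr16:84735351-84735380, minus strand: caaggagaggcGCGCATGcgcccccgcgtg
Mrpl12, NRF1, chr11:120484548-120484577, plus strand: ttgtctccgcgCCTGCGCgtcgcaccgcct
Mrps12, YY1, chr7:28742001-28742030, minus strand: catggacgcagCCATCTTggagtggaaaca
Mrpl21 and Mrpl12 thus held the same NRF1 letters, with log2 fold changes of −0.27 and 0.41. A match is a description of letters and not evidence that a factor was bound.

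Many of these genes start close to another gene on the opposite strand. Within 1000 bases such a partner, or one whose start overlapped as for Mrpl48 and Rab6a, was found for 27 of the 68 members with a promoter window, and the partner was measured for 25. These made 24 pairs, since Mrpl46 and Mrps11 are each other's partner. The fold changes had the same sign in 13 of the 24 pairs, and in none were both called lower. Mrpl18 lay 238 bases from Tcp1, a subunit of the cytosolic chaperonin, and the log2 fold changes were −0.62 and −0.16 (FDR 0.23 for Tcp1). Mrpl21 lay 32 bases from Ighmbp2, a helicase gene, and the pair went opposite ways, at −0.27 and 0.31 (FDR 0.068 for Ighmbp2). The start sites of Mrpl46 and Mrps11 were 42 bases apart, at 0.01 and −0.08. For Mrpl47 the partner Ndufb5, a complex I subunit, differed by −0.26 (FDR 0.11), and for Mrps5 the partner Zfp661 by 0.18 (FDR 0.17).

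Proteins of the mitochondrial ribosome whose symbols do not start with Mrp lay on both sides of the controls. Of 4 measured, Ptcd3, a pentatricopeptide protein of the small subunit, was downregulated at −0.51 (FDR 0.075). Dap3, a GTP-binding protein of the small subunit, differed by −0.35 (FDR 0.17), Chchd1 by −0.07 and Gadd45gip1 of the large subunit by 0.20 (FDR 0.14).

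The factors that work on the ribosome had the lowest median of the lists around it. Of 12 mitochondrial translation factors 5 were downregulated and none upregulated, with a median of −0.32, against the 9 of 77 and −0.07 of the ribosomal proteins. The 5 were 41.7% of the factors, against 7.42% of all genes and 13.6% of those above the median level called lower. Guf1, an elongation factor homologue that binds the ribosome, measured 9.05, 9.01 and 8.90 in the controls and 7.66, 7.81 and 8.30 after miR-342-3p. The groups were far apart, with a log2 fold change of −1.06 (SE 0.15, FDR 0.013). Mtif2, the initiation factor that brings the first tRNA, fell by 0.51 (FDR 0.083), and Gfm1, the translocating elongation factor, by 0.44 (FDR 0.026). Tsfm, which recharges the elongation factor Tufm, changed by −0.38 (FDR 0.049) and Mtfmt, which formylates the initiator tRNA, by −0.32 (FDR 0.048). Their medians on replicates 1, 2 and 3 were −0.52, −0.16 and −0.25.

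The remaining lists around the organelle held few called genes. Over all genes 7.42% were called lower and 4.14% higher, and above the median level 13.6% and 6.19%. Of 21 genes of ribosome assembly and rRNA modification, Gtpbp10 (−0.50, FDR 0.069) and Nsun4 (−0.37, FDR 0.063) were lower and Mtg1 (0.30, FDR 0.082) was higher, with a median of −0.06. Of 15 genes of mitochondrial transcription and RNA processing, Lrpprc, which stabilizes mitochondrial mRNAs, was lower (−0.46, FDR 0.049) and Polrmt, the mitochondrial RNA polymerase, higher (0.27, FDR 0.090). Of 16 mitochondrial aminoacyl-tRNA synthetases Iars2 was lower (−0.32, FDR 0.099), and of 9 genes of mitochondrial DNA replication Ssbp1 was (−0.38, FDR 0.051). Of 10 regulators of mitochondrial biogenesis Nrf1, which encodes the factor of the NRF1 site, was lower (−0.38, FDR 0.037), while Gabpa, the ETS subunit of the second nuclear respiratory factor, differed by −0.30 (FDR 0.19). Of 85 nuclear genes of the respiratory chain, its assembly factors included, 5 were lower, or 5.88%, and 2 higher, or 2.35%, with a median of −0.06. The lowest were Ndufb6, Ndufa9 and Ndufs1 of complex I at −0.62, −0.58 and −0.56 (FDR 0.016, 0.014 and 0.026), and the higher ones were Atp5k of the ATP synthase at 0.73 (FDR 0.010) and Cox7a2l at 0.31 (FDR 0.080).

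The cytosolic ribosomal proteins are set beside the mitochondrial ones. Of 58 measured, none was called lower and 3 were called higher, Rps28, Rps14 and Rps15 at 0.34, 0.32 and 0.27, with a median of −0.001. The 3 were 5.17% of the list, where 4.14% of all genes and 6.19% of those above the median level were called higher. Called lower were 7.42% and 13.6%, in that order. On replicate 1 the median change of the cytosolic proteins was −0.09, against −0.19 for the mitochondrial family, and on replicate 3 it was −0.02 against −0.10. At an unadjusted p under 0.05, limma placed 4 of the 58 lower and 4 higher, where 13% and 12.5% of all genes met that mark. The difference between the families was not tested.

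**Figure D4:**
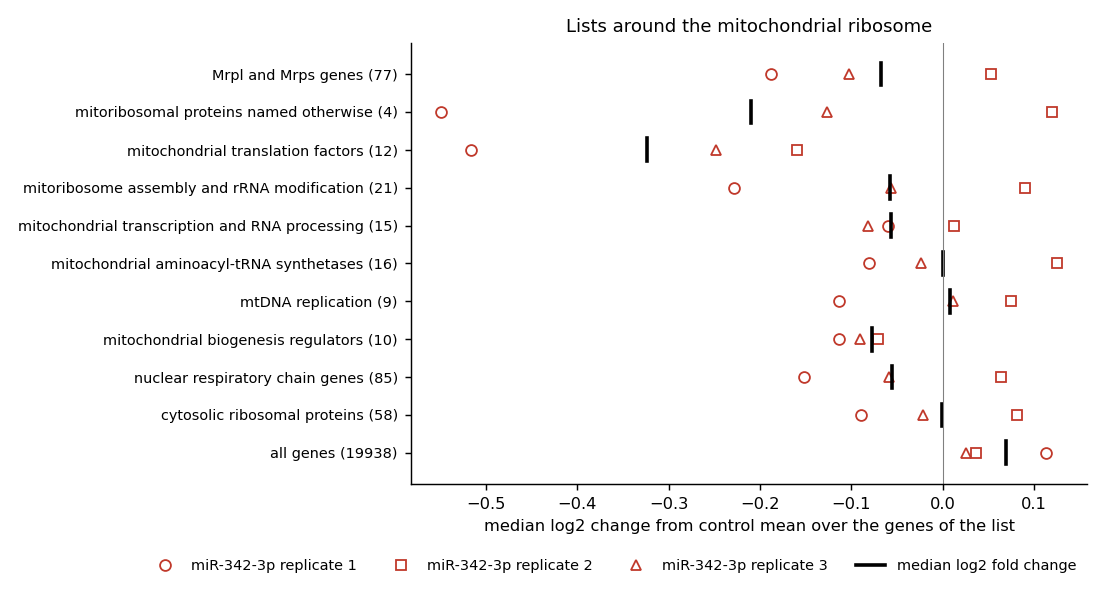
Median, over the genes of each list, of the log2 difference from the control mean (horizontal axis, number of genes in parentheses) on miR-342-3p replicates 1 (circles), 2 (squares) and 3 (triangles), with the median log2 fold change as a black bar. The mitochondrial translation factors have the lowest bar at −0.32, the Mrpl and Mrps genes lie at −0.07, and replicate 2 is to the right of replicates 1 and 3 in every list, though not over all genes.

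The markers of cell types are given beside these values. Of the 9 macrophage markers measured Fcgr1 and Itgam were lower and Spi1 was higher, and their mean level was 10.74 to 10.77 on the control arrays and 10.55 to 10.74 on the miR-342-3p arrays. Of the 8 fibroblast markers Pdgfra was higher (0.49, FDR 0.031), with the list at 6.54 to 6.61 on the control and 6.67 to 6.97 on the miR-342-3p arrays. None of the 6 lymphocyte markers was called, and the list stood at 5.61 to 5.71 and 5.64 to 5.98. On replicate 1, where the members' median change was −0.19, the median changes were 0.36 for the fibroblast, 0.29 for the lymphocyte and −0.13 for the macrophage markers. They were 0.11 over all genes and −0.10 over the genes above the median level. The mean levels of the fibroblast and lymphocyte lists lay below that of all genes, 7.38 to 7.39 on the control arrays. Genes above the median level are therefore no match in level for these lists, and genes of like level were not set beside them. Arrays give no true zero, and the part of these shifts in the results for the mitochondrial ribosome was not tested.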

How the data were processed

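Gene expression was measured in 6 samples of RAW264.7 cells, 3 per group, on Affymetrix arrays. The authors processed the scans with RMA (background correction, quantile normalization, summarization) in the affy package and deposited 1 log2 value per probe set. The version was not given in the sources used here. Of 35556 probe sets, 21789 had 1 gene in the platform annotation, 1621 several and 12146 none listed, and 21698 matched RefSeq through Entrez IDs, with 0 of the symbols replaced. A probe set with several genes was not used to name any. As in the study's methods, 1 probe set stood for each gene, that of the largest interquartile range over the 6 arrays. The 19938 genes were fitted in limma version 3.58.1 (R version 4.3.3, functions lmFit and eBayes), two-sided, all 6 arrays, no block, and adjusted over all genes by the Benjamini and Hochberg method at an FDR under 0.1. Standard errors are those of the moderated fit. No filter on level was applied. Levels of different probe sets were set against each other to split the genes at the median level and in the large minus small mean, which was compared between arrays. The macrophage markers were also ordered by control mean, and levels were given for the marker lists and the probe sets of Mrpl47. These orders describe array values and do not rank the amounts of different transcripts.

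Named with values were all called members and, in each subunit, the 4 lowest and 4 highest fold changes, as well as up to 3 called genes per direction of each related list. The other members, related genes and partner genes that are named were chosen after their values were seen, among them Tsfm, Mtfmt, Dap3, Chchd1, Gadd45gip1 and Gabpa. The members and lists were chosen with earlier results of these data known. Promoters and the microRNA came from RefSeq (GRCm38.p6). The fit was tested on data simulated with the same spread in both groups. On these arrays the spread was larger after miR-342-3p in 84.9% of all genes, so that test does not cover the calls here. Alternatives were the replicate block, each array left out, other probe set choices, scalings, priors, weights, filters and thresholds, and Student's t-test. That test is not moderated and was adjusted over all genes here. The study names it in its general statistics and limma for its arrays. Arrays have no read depth. Plots were made in Python version 3.11.15 (matplotlib version 3.10.9).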

Additional observations from a re-analysis of the deposited data

How the results depend on the processing

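Leaving out 1 array at a time gave 1 to 20 members lower and 0 to 8 higher, with 1 to 11 lower and 0 to 2 higher in the large subunit and 0 to 9 lower and 0 to 6 higher in the small. The large minus small median, 0.0080 on the log2 scale, then ran from −0.039 to 0.014 and turned negative without control replicate 3 (−0.039), without miR-342-3p replicate 1 (−0.012) and without replicate 3 (−0.0022). The medians ran from −0.14 to −0.015 for the large and from −0.16 to −0.0021 for the small subunit.

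Same-numbered arrays did not deviate together from their group means, with correlations of −0.31, −0.16 and −0.11, so the numbers were not taken as pairs. With the replicate block, 5 members were lower, 4 of them among the 9, and 1 was higher, Mrpl12, against 7.25% and 2.76% of all genes, with 3 lower and 1 higher in the large subunit.

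The medians of the arrays over all probe sets spanned 0.15 on the log2 scale. Centring each array on its median left 6 members lower, 1 of them in the small subunit, against 6.92% of all genes. The median over the members was then −0.096, against 0.040 over all genes. Repeated quantile normalization gave 6 higher, 3 in each subunit, against 9.11%, and turned the large minus small median to −0.0019. It brought the median over the members to −0.0089, against 0.089 over all genes. The trend and robust prior gave 1 higher, in the large subunit, against 4.88%, and 11 lower, 5 in the small, against 8.84%. Restricting the fit to genes above the median level gave 5 higher, 2 large and 3 small, against 10.9% of those genes, and 12 lower, 5 in the small, against 19.6%. At an FDR under 0.05, 3 were lower, 2 large and 1 small, against 3.32% of all genes. Student's t-test, adjusted over all genes, called 0 members lower or higher, 0 of either subunit, with 22 genes lower and 26 higher among all genes. The causes were not tested. The other choices of probe set, the array weights and the assignment by structure kept the counts within 1.5 times. No fold change of a named member was reversed, which many of these settings could not do by construction. Leaving out pseudogene symbols changed nothing, since no member is one. Depth does not apply to arrays, and spots were not compared with background here.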
